A study of Mus musculus with 12 samples.

Results

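The genes described here serve DNA replication and the supply of its nucleotides. They are 47 mouse genes chosen by name. They cover the licensing of replication origins, the MCM helicase and its activation, the sliding clamp and its loader, and the replicative polymerases and primase. The rest serve single strand binding, the joining of nascent strands, deoxynucleotide synthesis and S phase entry through cyclin E. Of the 47 genes, 45 had a row among the 54537 genes of the deposited table, and Cdt1 and Gins2 were not analysed here. All 45 reached at least 1 FPKM in at least 2 of the 12 libraries, as did 16289 genes in all, so no gene of the set was lost to the filter on low values. FPKM counts fragments relative to transcript length and library size, so levels of different genes can be set beside each other.

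Poly(A) RNA came from a mouse line labelled WT+1343KO-a14, called 1343KO here, and from a line labelled WT. The labels do not say what locus the number in that name stands for, nor what the plus sign joins, and the 1343KO line is 1 clone. Each line was sampled at day 0 as embryonic stem (ES) cells on gelatin in serum with leukaemia inhibitory factor, the cytokine that holds them undifferentiated. At days 8 and 16 it was sampled as embryoid bodies, floating aggregates that differentiate once the cytokine is withdrawn. Each of the 6 groups (1343KO and WT at 3 days) had 2 libraries. The labels do not say whether these were grown apart, and the p-values therefore reflect variation among libraries that could be technical.

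Replication starts in G1, when the origin recognition complex, Cdc6 and Cdt1 load the MCM helicase onto DNA. Cyclin E with its kinase and the Cdc7 kinase then turn loaded helicases into moving forks, where polymerases held by the Pcna clamp copy the strands and draw on deoxynucleotides made by ribonucleotide reductase and thymidylate synthase. Many of these genes are transcribed late in G1 under E2F factors, and ES cells, which have a short G1 phase and divide fast, carry high levels of their transcripts.

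As a check on the lines, Snhg3, the host gene of the small nucleolar RNA that the series title names, was listed at 1.57 FPKM in 1 of the 1343KO libraries of day 0 and at 0, or a vanishing value, in the other 5. The 6 WT libraries had 8.31 to 61.1 FPKM. Summed FPKM of 8 ES cell markers chosen for this work (Pou5f1, Sox2, Nanog, Zfp42, Esrrb, Klf4, Tdgf1 and Dppa4) was 2096 to 2178 in the 1343KO line and 1965 to 1971 in WT at day 0, and all 8 were present in both lines. Depth was not given; from the smallest steps of the values it was estimated at 4813000 to 7910000 fragments per library, and 12909 to 14069 genes per library reached 1 FPKM. The 2 libraries of a group correlated at 0.970 to 0.975 across genes. These are correlations over genes, which are not independent replicates.

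At day 16 most replication transcripts were higher in the 1343KO line than in WT. Of the 45 genes, 40 were higher in the 1343KO line than in WT at day 16 and none was lower, at an adjusted p under 0.05 (limma on log2(FPKM + 1), Benjamini-Hochberg over all 16289 genes). Of all genes tested, 28.5% were higher and 24.1% lower (52.6% in either direction). The median difference over the 45 genes was 1.31 on the log2 scale, against 0.07 over all genes tested. It was 0.40 over the 3910 genes of chromosomes other than 8 whose mean reached 20 FPKM. In 41 of the 45 genes both 1343KO libraries lay above both WT libraries at day 16, and in none did both lie below, against 40.6% and 34.7% of all genes tested. The smallest p that an exact permutation of 2 libraries against 2 allows is 0.333, so every call rests on a spread pooled over genes and groups.

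At day 8 the same direction prevailed. At that time 30 of the 45 genes were higher in the 1343KO line and 2, Orc6 and Ccne2, were lower, against 23.3% and 19.6% of all genes tested (42.8% in either direction). The median difference was 0.67, against 0.06 over all genes tested. Both 1343KO libraries lay above both WT libraries for 37 of the 45 genes and below for 3 (Orc6, Rrm1 and Ccne2), against 38.3% and 32.5% of all genes tested.

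As ES cells the lines differed in few of these genes. None of the 45 was higher in the 1343KO line at day 0 and 2 were lower, Mcm5 and Ccne2, where 1.59% of all genes tested were higher and 2.12% lower (3.71% in either direction). By unadjusted p under 0.05, 7 of the 45 differed in either direction at day 0. The share of all genes at that unadjusted threshold is not given here, so nothing is read from this count. The median difference was -0.06, against 0.00 over all genes tested, and libraries of the lines were fully separated for 11 genes upward and 17 downward, at 22.8% and 22.2% of all genes tested.

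**Figure D1:**
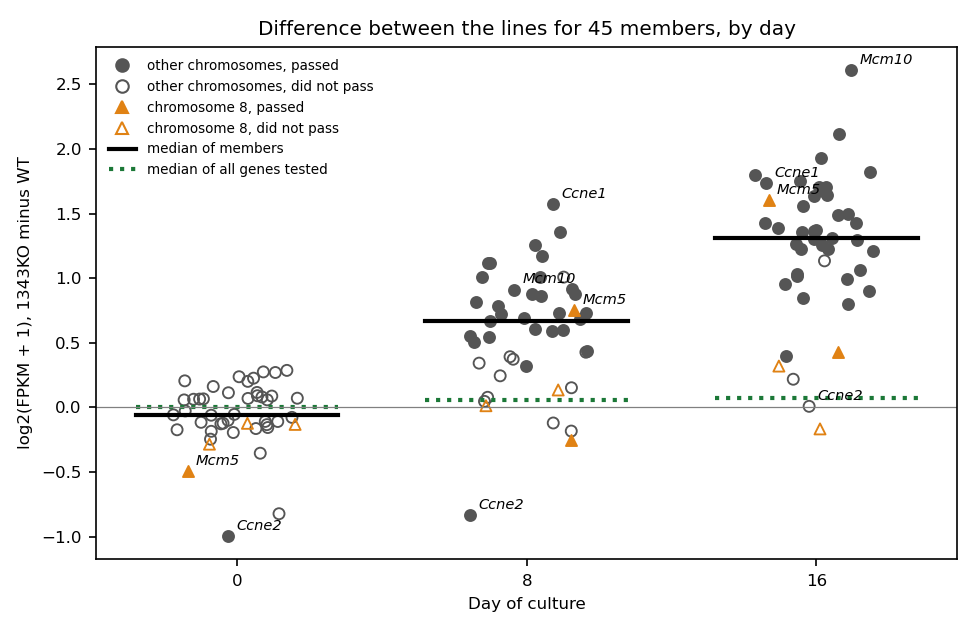
Difference between the lines in log2(FPKM + 1), 1343KO minus WT (vertical axis), for 45 genes at each day of culture (horizontal axis); filled points passed at an adjusted p under 0.05, triangles lie on chromosome 8, black bars are medians of the 45 genes and dotted bars medians of all genes tested. The median moves through -0.06, 0.67 and 1.31 at days 0, 8 and 16, and Ccne2 lies below 0 at days 0 and 8.

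Summed over the 45 genes, the 1343KO line held 2300.3 and 2272 FPKM (day 0), 2075 and 1998 (day 8), and 2061 and 2075 (day 16) in its libraries R1 and R2. The WT line held 2423 and 2399.7, 1275 and 1339, and 791 and 864 FPKM on those days. The libraries of the lines overlapped at no day: the sum was lower in the 1343KO line at day 0 and higher at days 8 and 16. As a share of all FPKM, the set took 0.412% and 0.417% in 1343KO libraries at day 16, against 0.172% and 0.192% in WT libraries. In RNA from whole cultures, fewer cells of a type and less RNA per cell cannot be told apart.

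**Figure D2:**
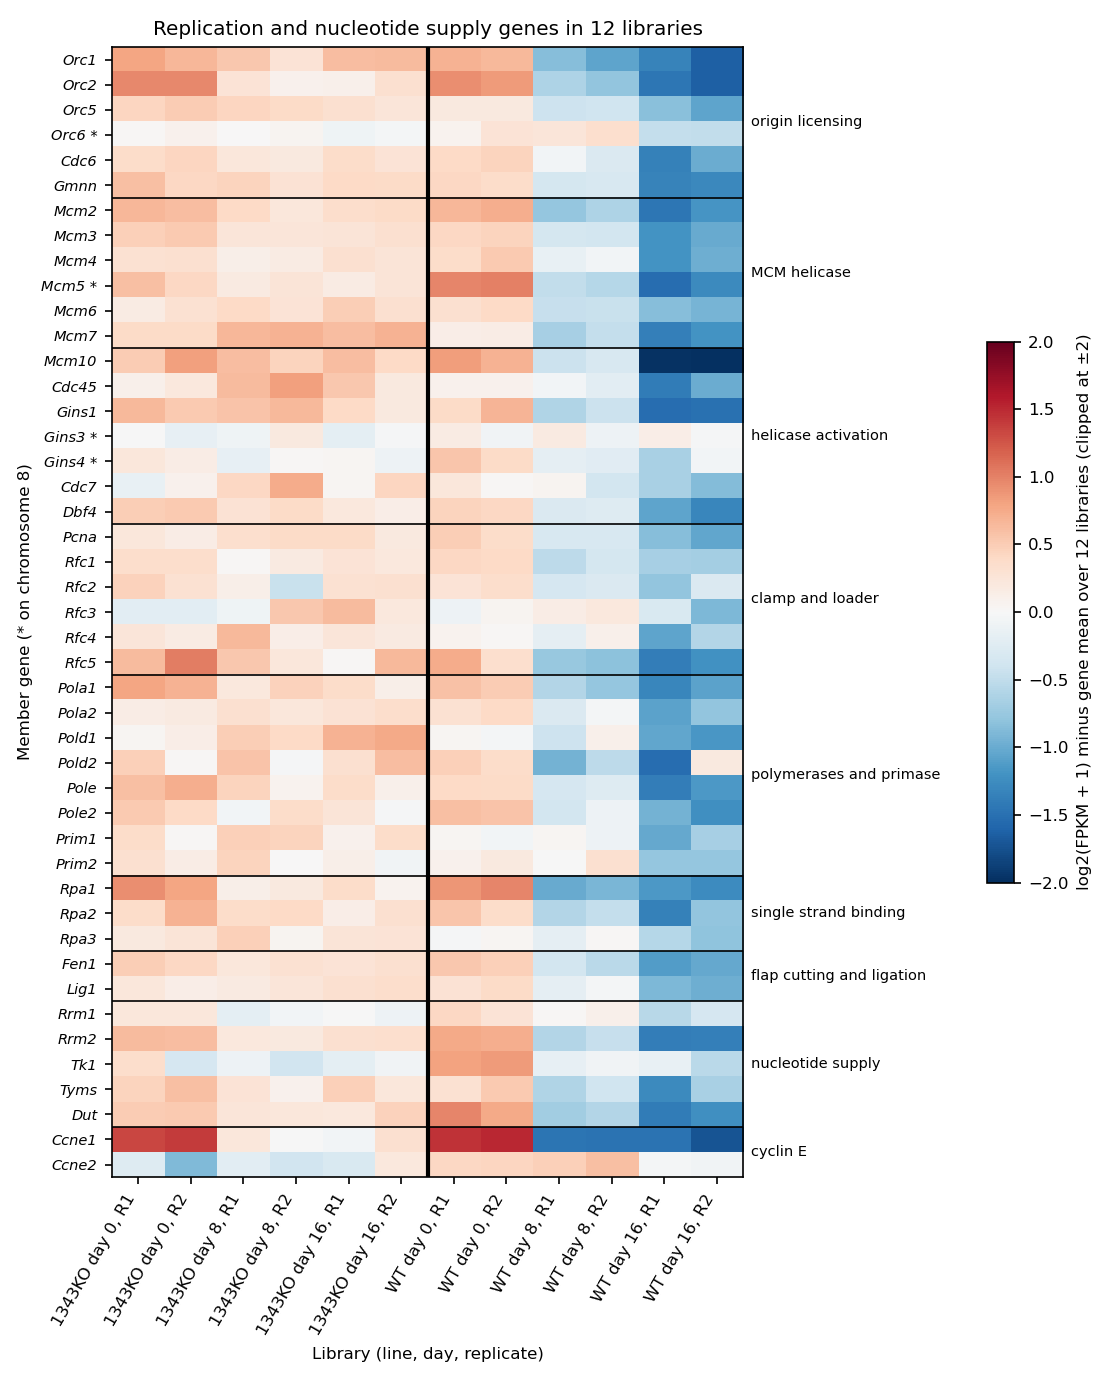
Level of each gene in each library as log2(FPKM + 1) minus the gene's mean over 12 libraries (colour, clipped at 2 either way), genes grouped by role, 1343KO libraries left of the line and WT libraries right of it. Most rows turn blue in the WT columns at day 8 and more at day 16, while most rows of the 1343KO columns stay near white or red; Orc6, Rfc3, Prim1, Prim2, Gins3 and Ccne2 are among the rows that are not blue at WT day 8, and WT day 16 library R2 is not blue for Pold2.

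The promoters are shown because most of these genes were higher in the 1343KO line at day 16. The RefSeq promoter table (GRCm38.p6) held 38 of the 47 genes, and the 250 bases before each start site were searched on both strands for 4 letter strings of the E2F type (TTTCCCGC, TTTGGCGC, TTTGCCGC and TTTCGCGC). Such a string was present in 8 of the 38 promoters (21.1%), those of Cdc6, Gins3, Mcm5, Mcm6, Mcm7, Orc1, Pola1 and Rfc3, and in 2.16% of the promoters of 27025 genes. CCAAT was found in 22 of 38 (57.9%) against 37.5% of all, GGGCGG in 28 (73.7%) against 35.4%, and TTTGAA, the letters of the cell cycle homology region, in 6 (15.8%) against 18.3%. A match is a description of letters and not a bound site, and no test was made of these shares.

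Stretches with E2F type letters, in capitals, are printed for 3 helicase genes and Orc1, all higher in the 1343KO line at days 8 and 16, and for Gins3, which passed in no comparison. Each is written 5′ to 3′ along its gene. The RefSeq start sites used for the promoters differ from the gene ends in the coordinates given here. The Mcm7 and Gins3 stretches and the capitals of Orc1 lie within those gene coordinates, not before them. In Mcm5 and Mcm6 a pair of strings on opposite strands overlap and are capitalised as 1 run.
Mcm5 (chr8:75109298-75109397, plus strand): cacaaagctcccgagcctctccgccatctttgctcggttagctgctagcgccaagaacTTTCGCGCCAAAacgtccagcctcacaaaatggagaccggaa
Mcm6 (chr1:128359715-128359820, minus strand): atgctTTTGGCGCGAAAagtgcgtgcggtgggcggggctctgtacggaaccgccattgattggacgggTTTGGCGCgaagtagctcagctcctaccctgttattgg
Mcm7 (chr5:138172011-138172110, minus strand): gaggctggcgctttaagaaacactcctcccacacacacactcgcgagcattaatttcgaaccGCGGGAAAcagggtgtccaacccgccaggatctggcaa
Orc1 (chr4:108579354-108579453, plus strand): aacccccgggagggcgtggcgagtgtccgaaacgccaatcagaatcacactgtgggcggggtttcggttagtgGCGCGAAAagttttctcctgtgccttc
Gins3 (chr8:95633456-95633555, plus strand): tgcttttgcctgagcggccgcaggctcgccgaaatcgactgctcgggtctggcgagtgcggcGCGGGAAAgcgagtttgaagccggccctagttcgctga

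All 6 origin licensing genes were higher in the 1343KO line at day 16 (28.5% of all genes tested), and 4 of them at day 8 (23.3%). Orc1 (chr4:108579423-108614833 in GRCm38), the subunit of the origin recognition complex that comes and goes with the cell cycle, had 29.7 and 27.2 (day 0), 24.6 and 20.5 (day 8) and 26.4 and 26.6 FPKM (day 16) in the 1343KO line. WT libraries held 27.7 and 26.9, 8.83 and 7.50, and 6.03 and 4.72 FPKM on those days. The libraries of the lines overlapped at day 0 and were far apart at days 8 and 16. The difference between lines was 1.36 ± 0.14 (log2 difference ± SE) at day 8 (adjusted p = 5.46e-05) and 2.12 ± 0.14 at day 16 (adjusted p = 1.87e-06, limma), the largest of the licensing genes on both days. Orc2 (chr1:58462771-58505109), a core subunit of the same complex, had 42.5 and 42.7 (day 0), 26.1 and 22.8 (day 8) and 23.2 and 27.1 FPKM (day 16) in the 1343KO line. The WT line had 41.8 and 39.5, 13.7 and 11.96, and 7.27 and 6.27 FPKM on those days. It changed by -0.74 ± 0.12 in the 1343KO line (adjusted p = 0.00198) and by -2.42 ± 0.12 in WT (adjusted p = 1.98e-07) to day 16. The lines then differed by 1.75 ± 0.12 (adjusted p = 2.66e-06). Of the Orc2 exon bases, 29.8% overlap Nif3l1 on the opposite strand, which differed between lines in the same direction at day 16 (0.93). Whether reads were assigned by strand is not given, so reads of overlapping genes cannot be told apart there.

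Cdc6, the loader that brings MCM to the origin, averaged 17.7 ± 0.810 FPKM in the 1343KO line and 5.71 ± 1.20 in WT at day 16 (SD, n = 2 each, as for the other means), a log2 difference ± SE of 1.49 ± 0.14 (adjusted p = 1.82e-05). Its day 8 difference of 0.37 ± 0.14 did not pass (adjusted p = 0.0542). Gmnn, which encodes geminin, the inhibitor that blocks relicensing, averaged 52.8 ± 0.277 FPKM in the 1343KO line and 15.5 ± 0.373 in WT (1.71 ± 0.09), and Orc5 averaged 25.8 ± 0.992 and 10.5 ± 1.23 (1.23 ± 0.10). The inhibitor of licensing was thus higher together with the genes that carry it out. Orc6 (chr8:85299632-85308278), the smallest subunit, had 54.9 and 57.4 (day 0), 54.8 and 56.6 (day 8) and 51.0 and 52.8 FPKM (day 16) in the 1343KO line. WT cultures gave 56.7 and 66.0, 64.6 and 68.4, and 38.7 and 38.1 FPKM on those days. It was lower in the 1343KO line at day 8 (-0.25 ± 0.08, adjusted p = 0.0334) and higher at day 16 (0.43 ± 0.08, adjusted p = 0.00184), but the day 8 call was lost without any 1 of the 4 day 8 libraries (-0.21 to -0.29, adjusted p of 0.0609 to 0.158). Orc6 was the 1 licensing gene of the 6 that did not fall in WT to day 8 (0.12 ± 0.08, adjusted p = 0.261). Of its exon bases, 6.93% overlap Vps35 on the opposite strand, which was lower in the 1343KO line on all 3 days (-0.56, -0.76 and -0.59).

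All 6 helicase genes, Mcm2 to Mcm7, were higher in the 1343KO line at day 16, by 1.30 to 1.93 (28.5% of all genes tested). At day 8, 5 of 6 were higher (23.3% of all genes tested). Their proteins form 1 ring, with 1 copy of each. Mcm2 (chr6:88883474-88898780) had 85.5 and 83.2 (day 0), 71.2 and 62.8 (day 8) and 68.5 and 70.4 FPKM (day 16) in the 1343KO line. WT had 86.0 and 89.3, 30.9 and 34.5, and 19.1 and 23.1 FPKM on those days. Its lines were close at day 0 and far apart at days 8 and 16 (1.01 ± 0.10 and 1.68 ± 0.10, adjusted p = 1.3e-06). Mcm3 (chr1:20802968-20820312) had 97.4 and 101 (day 0), 82.8 and 82.6 (day 8) and 83.9 and 87.4 FPKM (day 16) in the 1343KO line. WT libraries held 93.4 and 96.1, 54.8 and 54.3, and 30.03 and 34.4 FPKM on those days. It followed Mcm2, with a smaller gap at day 8 (0.59 ± 0.07) than at day 16 (1.39 ± 0.07, adjusted p = 5.5e-07). Mcm4 (chr16:15623897-15637400) had 60.5 and 61.0 (day 0), 53.3 and 54.9 (day 8) and 61.4 and 58.5 FPKM (day 16) in the 1343KO line. The WT line had 63.0 and 70.7, 44.2 and 46.8, and 20.7 and 24.4 FPKM on those days. Its day 8 libraries were separated, but by 0.24 ± 0.09, the smallest difference of the ring, which did not pass (adjusted p = 0.0587), and its day 16 difference was 1.38 ± 0.09 (adjusted p = 2.41e-06). Mcm6 (chr1:128331590-128359664) had 67.4 and 74.3 (day 0), 79.1 and 72.9 (day 8) and 84.9 and 74.6 FPKM (day 16) in the 1343KO line. WT cultures gave 74.9 and 79.4, 43.3 and 43.7, and 32.7 and 30.8 FPKM on those days. The lines were close at day 0 and separated later, by 1.30 ± 0.09 at day 16 (adjusted p = 2.39e-06). Mcm7 (chr5:138164583-138172422) had 103 and 103 (day 0), 126 and 129.5 (day 8) and 121 and 128 FPKM (day 16) in the 1343KO line. WT had 86.8 and 88.0, 49.6 and 56.5, and 30.2 and 34.0 FPKM on those days. Its 1343KO libraries lay above the WT ones at every day.

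Mcm7 differed most between lines within the ring, by 1.25 ± 0.08 at day 8 (adjusted p = 3.64e-06) and 1.93 ± 0.08 at day 16 (adjusted p = 1.56e-07). It was the 1 helicase gene of the 6 that rose in the 1343KO line, by 0.30 ± 0.08 to day 8 (adjusted p = 0.0254) and 0.27 ± 0.08 to day 16 (adjusted p = 0.0353). Both of these rises were lost under TPM and median-of-ratios scaling (adjusted p of 0.101 and 0.0799 at day 8, 0.0796 and 0.274 at day 16). They were also lost without any 1 of the 1343KO libraries of the days compared (0.0707 to 0.164) and, to day 16, without either WT library of day 0 (0.0517). Of the Mcm7 exon bases, 7.25% overlap Ap4m1 on the opposite strand, which did not pass between lines at any day (-0.11, 0.02 and -0.19).

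Mcm5 (chr8:75109569-75128439) differed between lines in opposite directions before and after differentiation. It had 122 and 107 (day 0), 91.0 and 96.9 (day 8) and 90.5 and 96.2 FPKM (day 16) in the 1343KO line. WT libraries held 160.0 and 164, 56.7 and 53.9, and 27.5 and 32.8 FPKM on those days. At day 0 both 1343KO libraries lay below both WT libraries, a difference of -0.50 ± 0.10 (adjusted p = 0.0263), whereas at days 8 and 16 they lay above, by 0.75 ± 0.10 (adjusted p = 0.000215) and 1.60 ± 0.10 (adjusted p = 1.17e-06). The day 0 call was lost without 1343KO library R2 (adjusted p = 0.148) and without WT library R1 (0.0978) or R2 (0.144), the value staying between -0.40 and -0.51, and with only the 2 day 0 groups fitted (0.202).

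Shares within the ring also differed between the lines' libraries. Mcm5 made up 21.5% ± 1.78 of the summed FPKM of Mcm2 to Mcm7 in the 1343KO line at day 0 and 28.1% ± 0.34 in WT (SD, n = 2 each). Mcm7 made up 19.4% ± 0.127 in the 1343KO line and 15.2% ± 0.283 in WT at day 0. Its share was 25.5% ± 0.652 and 18.6% ± 1.24 at day 8, and 24.3% ± 0.784 and 18.9% ± 0.0793 at day 16. The libraries of the lines did not overlap in any of these shares. They were picked from the shares of all subunits and days, and no test was made. Some others were separated with WT higher, such as Mcm4 at day 8 (10.8% ± 0.286 in the 1343KO line and 16.0% ± 0.249 in WT). The most and least abundant subunits differed 1.89-fold in the 1343KO line (Mcm5 over Mcm4) and 2.42-fold in WT (Mcm5 over Mcm4) at day 0, and 2.08-fold (Mcm7 over Mcm4) and 1.53-fold (Mcm3 over Mcm2) at day 16.

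Falls in the 1343KO line were small and fragile within the ring. To day 8 the change was -0.33 ± 0.10 for Mcm2 (adjusted p = 0.0442) and -0.26 ± 0.07 for Mcm3 (adjusted p = 0.0318), and to day 16 it was -0.29 ± 0.10 for Mcm5 (adjusted p = 0.0494). The Mcm3 call was lost without any 1 of the 4 1343KO libraries of days 0 and 8 (0.0746 to 0.134). The Mcm2 call was lost without any 1 of the 1343KO libraries other than R1 of day 8 and without either WT library of day 0 (0.0620 to 0.232). The Mcm5 call was lost without any 1 library other than 1343KO R2 of day 0 and the WT pair of day 16 (0.0616 to 0.246).

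**Figure D3:**
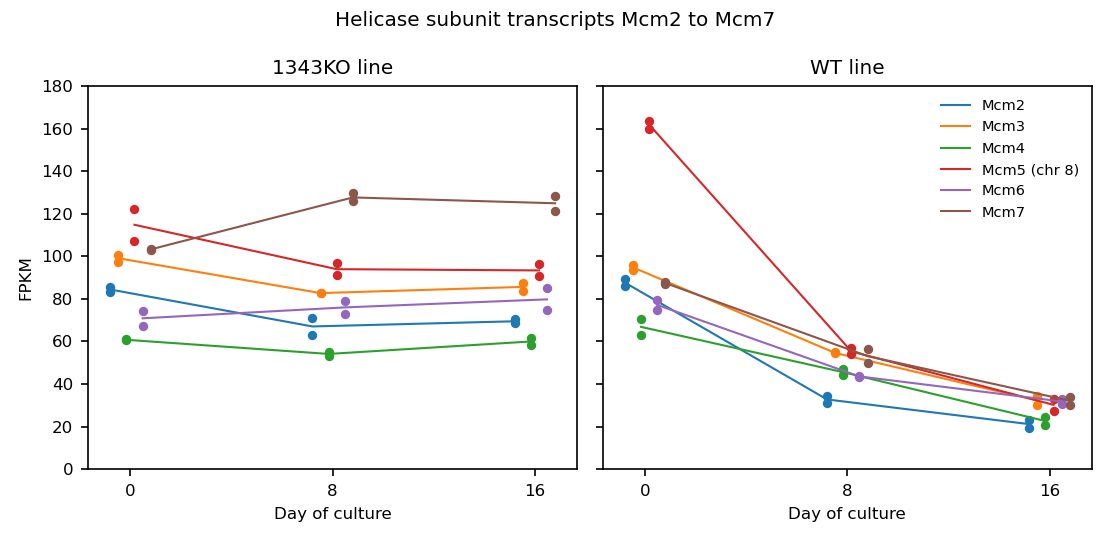
FPKM of Mcm2 to Mcm7 (vertical axis) by day of culture (horizontal axis) in the 1343KO line (left) and WT (right); points are libraries and lines join means of 2. The lowest 1343KO value of any of the 6 genes is 53.3 FPKM (Mcm4, day 8), above the highest WT value of day 16, 34.4 FPKM (Mcm3), and Mcm5 leads at day 0 in both panels.

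Genes that activate the loaded helicase followed the helicase, apart from Gins3 and Gins4. In the 1343KO line 5 of 7 were higher at day 16 (28.5% of all genes tested) and 5 of 7 at day 8 (23.3%). Mcm10 (chr2:4989714-5012791), which is needed for activated helicases to move off the origin, had 31.9 and 40.0 (day 0), 34.7 and 30.5 (day 8) and 34.6 and 29.6 FPKM (day 16) in the 1343KO line. The WT line had 40.5 and 36.4, 16.2 and 17.5, and 4.90 and 3.96 FPKM on those days. Its lines overlapped at day 0 and were separated later. The day 16 difference of 2.61 ± 0.14 (adjusted p = 7.36e-07) was the largest among the 45 genes. Gins1 (chr2:150905400-150931280), a subunit of the GINS complex of the active helicase, had 31.8 and 28.9 (day 0), 29.96 and 31.7 (day 8) and 26.5 and 22.8 FPKM (day 16) in the 1343KO line. WT cultures gave 26.2 and 32.4, 12.8 and 14.6, and 6.27 and 6.42 FPKM on those days. It was separated at days 8 and 16, by 1.12 ± 0.13 at day 8 (adjusted p = 0.000115) and 1.80 ± 0.13 at day 16 (adjusted p = 3.38e-06).

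The other GINS genes measured did not follow it. Gins3 (chr8:95633453-95645060) had 5.77 and 5.09 (day 0), 5.38 and 6.78 (day 8) and 4.90 and 5.71 FPKM (day 16) in the 1343KO line. WT had 6.60 and 5.50, 6.74 and 5.30, and 6.47 and 5.67 FPKM on those days. Libraries of the lines overlapped at every day, and Gins3 passed in none of the 11 comparisons. Gins4 (chr8:23226616-23237659) had 28.8 and 27.3 (day 0), 21.8 and 24.9 (day 8) and 25.3 and 22.7 FPKM (day 16) in the 1343KO line. WT libraries held 36.5 and 32.4, 21.6 and 20.8, and 15.2 and 23.6 FPKM on those days. The 1343KO libraries lay below the WT ones at day 0 (-0.28 ± 0.17), above them at day 8 (0.14 ± 0.17) and overlapped them at day 16 (0.32 ± 0.17), and none of these differences passed (adjusted p = 0.468, adjusted p = 0.572 and adjusted p = 0.153). In WT it changed by -0.82 ± 0.17 to day 16 (adjusted p = 0.00248). Of the rest, Cdc45, the helicase cofactor, averaged 15.4 ± 2.73 FPKM in the 1343KO line and 4.58 ± 1.08 in WT at day 16 (1.56 ± 0.17). The kinase Cdc7 averaged 17.4 ± 3.56 and 8.16 ± 0.920 FPKM (0.995 ± 0.20), and Dbf4, its regulatory subunit, 64.0 ± 2.65 and 24.5 ± 3.13 (1.36 ± 0.09). Cdc45 also rose in the 1343KO line by 0.57 ± 0.17 to day 8 (adjusted p = 0.035), while its change in WT, -0.22 ± 0.17, did not pass (adjusted p = 0.303). That rise was lost under TPM and median-of-ratios scaling and without any 1 of the 1343KO libraries of days 0 and 8. Of the Cdc45 exon bases, 5.96% overlap Ufd1 on the opposite strand.

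The clamp and its loader were higher in the 1343KO line at day 16 for 6 of 6 genes (28.5% of all genes tested). At day 8, 3 of 6 were higher, Pcna, Rfc1 and Rfc5 (23.3% of all genes tested). Pcna (chr2:132249162-132253314), the clamp that tethers polymerases and the 1 of the 45 with the highest mean level, had 148 and 139 (day 0), 159.5 and 164 (day 8) and 164 and 143 FPKM (day 16) in the 1343KO line. The WT line had 178 and 163, 101 and 99.9, and 68.9 and 60.8 FPKM on those days. Lines overlapped at no day, with 1343KO below WT at day 0 and above it afterwards, and the differences were -0.25 ± 0.09 (adjusted p = 0.175), 0.68 ± 0.09 (adjusted p = 0.0002) and 1.23 ± 0.09 (adjusted p = 3.01e-06). A near copy, Pcna-ps2, reached 62.4 FPKM and differed between lines in the same direction at days 8 and 16 (0.52 and 1.01), so the split of reads between them is uncertain. Rfc5 (chr5:117378103-117389047), a small subunit of the clamp loader, had 58.5 and 77.3 (day 0), 54.7 and 44.1 (day 8) and 38.1 and 59.6 FPKM (day 16) in the 1343KO line. WT cultures gave 63.7 and 47.4, 21.6 and 20.8, and 13.7 and 15.7 FPKM on those days. The 1343KO replicates lay far apart at days 0 and 16 but above both WT libraries at days 8 and 16, with differences of 1.17 ± 0.23 (adjusted p = 0.00254) and 1.64 ± 0.23 (adjusted p = 0.000242). Of its exon bases, 10.7% overlap Wsb2 on the opposite strand, which at day 16 differed in the opposite direction (-0.70).

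Rfc3, another small subunit, averaged 24.0 ± 5.10 FPKM in the 1343KO line and 11.5 ± 3.59 in WT at day 16 (SD, n = 2 each; 1.02 ± 0.24, adjusted p = 0.00579). Its change in WT to day 16, -0.57 ± 0.24, did not pass (adjusted p = 0.0655). Rfc1, the large loader subunit, averaged 31.6 ± 1.01 and 16.4 ± 0.179 FPKM (0.90 ± 0.09). The other loader subunits, Rfc2 and Rfc4, differed by 0.85 and 1.03 at day 16 and had not passed at day 8 (adjusted p = 0.566 and adjusted p = 0.108). Of the Rfc4 exon bases, 12.7% overlap Eif4a2 on the opposite strand, a gene with a mean of 342 FPKM that was lower in the 1343KO line at day 16 (-0.31).

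Polymerase and primase genes were higher in the 1343KO line for 7 of 8 at day 16 (28.5% of all genes tested) and 5 of 8 at day 8 (23.3%). Pola1 (chrX:93304767-93632155), the catalytic subunit of the polymerase that starts each strand, had 20.4 and 19.0 (day 0), 13.2 and 16.01 (day 8) and 14.9 and 12.4 FPKM (day 16) in the 1343KO line. WT had 17.5 and 16.5, 7.23 and 6.24, and 4.005 and 4.87 FPKM on those days. It changed by -0.51 ± 0.15 in the 1343KO line (adjusted p = 0.0316) and -1.73 ± 0.15 in WT (adjusted p = 6.55e-06) to day 16. The lines differed by 1.01 ± 0.15 at day 8 (adjusted p = 0.000501) and 1.42 ± 0.15 at day 16 (adjusted p = 3.77e-05). The call in the 1343KO line was lost without its library R1 or R2 of day 0 or R2 of day 16 (adjusted p of 0.128, 0.0806 and 0.174). Pold1 (chr7:44532746-44548849), the catalytic subunit of polymerase delta, which copies the lagging strand, had 22.4 and 23.9 (day 0), 31.0 and 28.9 (day 8) and 35.7 and 37.6 FPKM (day 16) in the 1343KO line. WT libraries held 22.4 and 21.1, 16.1 and 23.3, and 10.1 and 9.18 FPKM on those days. It rose in the 1343KO line, by 0.64 ± 0.15 to day 16 (adjusted p = 0.0124), and changed by -1.10 ± 0.15 in WT (adjusted p = 0.000156). The lines differed by 1.82 ± 0.15 at day 16 (adjusted p = 8.3e-06). That rise was lost without 1343KO library R1 of day 0 (adjusted p = 0.0641) or R2 of day 16 (0.0685).

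Pold2, the next subunit of polymerase delta, was the polymerase gene that passed in none of the line comparisons. It had 48.4 and 59.6 FPKM in the 1343KO line and 12.7 and 44.2 FPKM in WT at day 16. Both 1343KO libraries lay above both WT libraries, but the WT replicates lay far apart, and the difference of 1.13 ± 0.46 had the largest standard error of the 45 (adjusted p = 0.0644). For the leading strand polymerase epsilon, Pole averaged 17.1 ± 2.36 FPKM in the 1343KO line and 5.39 ± 0.727 in WT at day 16 (1.50 ± 0.15) and Pole2 9.67 ± 1.43 and 3.62 ± 0.629 (1.21 ± 0.18). Of the Pole2 exon bases, 8.50% overlap Gm49384 on the same strand, which has a mean of 4.04 FPKM, so the split of reads between them is uncertain. Pola2, the accessory subunit of polymerase alpha, averaged 23.0 ± 0.670 and 9.10 ± 1.38 FPKM (1.26 ± 0.12). The primase genes changed in WT to day 8 by -0.03 ± 0.16 (Prim1) and 0.01 ± 0.17 (Prim2), which did not pass (adjusted p = 0.916 and adjusted p = 0.978). Between days 8 and 16 they changed by -0.81 ± 0.16 and -0.93 ± 0.17 (adjusted p = 0.00468 and adjusted p = 0.00363).

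The 3 subunits of replication protein A, which coats single strands, were all higher in the 1343KO line at day 16 (28.5% of all genes tested). Rpa1 and Rpa2 were higher at day 8 (23.3% of all genes tested). Rpa1 (chr11:75298166-75348324), the large subunit, had 101 and 90.9 (day 0), 56.9 and 60.1 (day 8) and 67.9 and 54.8 FPKM (day 16) in the 1343KO line. The WT line had 97.8 and 104, 25.6 and 27.2, and 23.0 and 21.2 FPKM on those days. It changed by -0.70 ± 0.11 in the 1343KO line (adjusted p = 0.00165) and -1.90 ± 0.11 in WT (adjusted p = 8.21e-07) to day 8. The lines differed by 1.12 ± 0.11 at day 8 and 1.43 ± 0.11 at day 16 (adjusted p = 4.79e-06). Rpa2 averaged 41.5 ± 3.85 FPKM in the 1343KO line and 16.6 ± 4.86 in WT at day 16 (1.30 ± 0.18), and Rpa3 60.6 ± 0.186 and 30.8 ± 3.66 (0.96 ± 0.14). Fen1 (chr19:10199132-10204169), the nuclease that trims flaps of Okazaki fragments, had 39.7 and 37.6 (day 0), 32.9 and 34.98 (day 8) and 34.1 and 35.5 FPKM (day 16) in the 1343KO line. WT cultures gave 41.0 and 39.6, 21.4 and 19.1, and 12.5 and 13.3 FPKM on those days. The lines were separated at days 8 and 16 (0.72 ± 0.09 and 1.37 ± 0.09, adjusted p = 1.83e-06). Of the Fen1 exon bases, 5.37% overlap Tmem258 on the opposite strand, which has a mean of 77.2 FPKM and was higher in the 1343KO line at day 16 (0.53), and 78.8% overlap Gm10143, an antisense gene with a mean of 0.439 FPKM. Lig1, the ligase that seals the fragments, averaged 66.2 ± 1.25 FPKM in the 1343KO line and 27.005 ± 1.09 in WT at day 16 (1.26 ± 0.08).

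Genes for deoxynucleotide supply were higher in the 1343KO line for 4 of 5 at day 16 (28.5% of all genes tested) and 3 of 5 at day 8 (23.3%). The ratio of the subunits of ribonucleotide reductase differed between the lines' libraries. Rrm2 (chr12:24708241-24714146), the radical-bearing subunit, had 120.2 and 119 (day 0), 88.9 and 88.7 (day 8) and 95.9 and 97.2 FPKM (day 16) in the 1343KO line. WT had 131 and 128, 51.1 and 55.5, and 28.8 and 29.1 FPKM on those days. The lines were close at day 0 and far apart later, with differences of 0.73 ± 0.06 (adjusted p = 1.73e-05) and 1.70 ± 0.06 (adjusted p = 6.6e-08). Rrm1, the catalytic large subunit, averaged 45.4 ± 3.18 FPKM in the 1343KO line and 51.7 ± 2.06 in WT at day 8, a difference of -0.18 ± 0.10 that did not pass (adjusted p = 0.157), and 47.7 ± 2.57 and 36.1 ± 3.94 at day 16 (0.40 ± 0.10). The ratio of Rrm1 to Rrm2 FPKM was 0.486 and 0.491 (day 0), 0.486 and 0.538 (day 8) and 0.517 and 0.473 (day 16) in 1343KO libraries. In WT libraries it was 0.503 and 0.470, 0.984 and 0.958, and 1.16 and 1.34 on those days.

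Dut (chr2:125247190-125258608), which clears dUTP so that uracil is not built into DNA, had 112 and 114 (day 0), 94.0 and 92.1 (day 8) and 91.2 and 109 FPKM (day 16) in the 1343KO line. WT libraries held 156 and 135, 48.6 and 52.0, and 29.4 and 33.3 FPKM on those days. In the 1343KO line it stood below WT at day 0 without passing (-0.35 ± 0.10, adjusted p = 0.108) and above WT later (0.88 ± 0.10 and 1.64 ± 0.10, adjusted p = 1.65e-06). Tyms, which makes thymidylate, averaged 55.4 ± 6.77 FPKM in the 1343KO line and 22.2 ± 7.16 in WT at day 16 (1.31 ± 0.19, adjusted p = 0.000358). Tk1, the salvage thymidine kinase, was the 1 gene of the 5 that did not pass at day 16. It had 30.04 and 18.3 (day 0), 21.9 and 17.8 (day 8) and 20.4 and 22.3 FPKM (day 16) in the 1343KO line. The WT line had 41.6 and 42.8, 20.9 and 22.2, and 21.1 and 15.7 FPKM on those days. Its 2 WT libraries of day 0 stood above all 10 others, the day 0 difference of -0.82 ± 0.21 did not pass (adjusted p = 0.0754), and at days 8 and 16 the lines overlapped.

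The 2 cyclin E genes, whose proteins drive entry into S phase, took different courses. Ccne1 (chr7:38097984-38107534) had 81.3 and 85.4 (day 0), 37.3 and 31.5 (day 8) and 30.6 and 39.8 FPKM (day 16) in the 1343KO line. WT cultures gave 87.8 and 92.1, 10.95 and 10.7, and 10.8 and 8.87 FPKM on those days. To day 16 it changed by -1.23 ± 0.14 in the 1343KO line (adjusted p = 0.000257) and -3.08 ± 0.14 in WT (adjusted p = 1.15e-07), the lowest value of the 45 genes in each line. The difference between lines did not pass at day 0 (-0.11 ± 0.14, adjusted p = 0.779), and was 1.57 ± 0.14 at day 8 (adjusted p = 2.37e-05) and 1.74 ± 0.14 at day 16. Ccne2 (chr4:11191351-11204779) had 9.59 and 5.85 (day 0), 9.92 and 8.62 (day 8) and 9.25 and 13.5 FPKM (day 16) in the 1343KO line. WT had 15.9 and 16.04, 16.5 and 18.0, and 11.3 and 10.98 FPKM on those days. Both 1343KO libraries lay below both WT libraries at days 0 and 8, by -0.99 ± 0.22 (adjusted p = 0.0402) and -0.83 ± 0.22 (adjusted p = 0.0124), and the lines overlapped at day 16 (0.01 ± 0.22, adjusted p = 0.988).

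The ratio of Ccne1 to Ccne2 FPKM was 8.48 and 14.6 (day 0), 3.75 and 3.66 (day 8) and 3.31 and 2.95 (day 16) in 1343KO libraries. In WT libraries it was 5.53 and 5.75, 0.664 and 0.595, and 0.955 and 0.808 on those days. Ccne1 was thus the more abundant cyclin E transcript in all 6 1343KO libraries, and Ccne2 in the 4 WT libraries of embryoid bodies. The Ccne2 calls are fragile. At day 0 the difference was lost without 1343KO library R2 of day 0 (-0.68, adjusted p = 0.181), without either 1343KO library of day 8 and without any 1 of the 6 WT libraries (0.0592 to 0.180). At day 8 it was lost without library R2 of either line (0.0716 for 1343KO and 0.0681 for WT). Of the Ccne2 exon bases, 17.4% overlap Ints8 on the opposite strand, which was higher in the 1343KO line at days 8 and 16 (0.36 and 0.99).

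**Figure D4:**
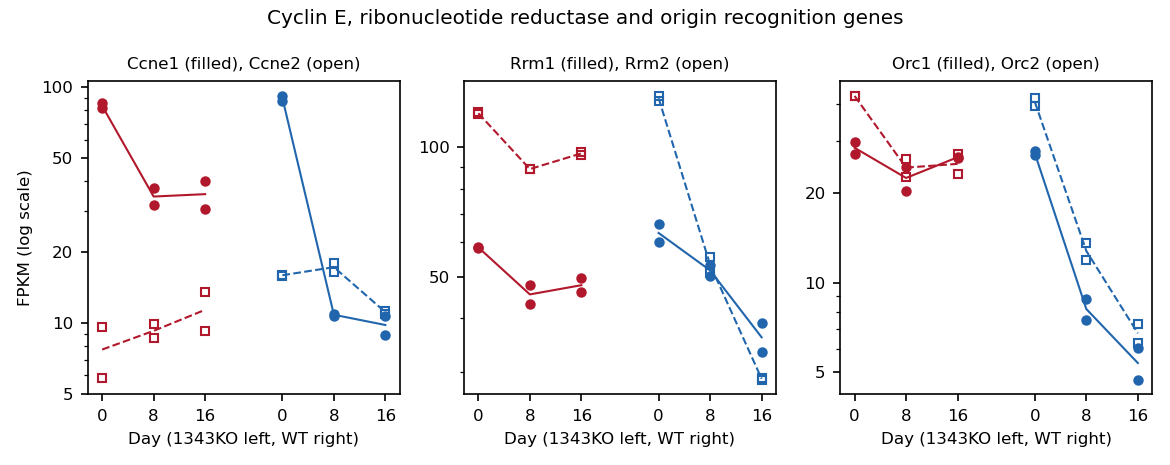
FPKM on a log axis by day for Ccne1 and Ccne2, Rrm1 and Rrm2, and Orc1 and Orc2 (filled and open points, 1 per library, lines joining means of 2), 1343KO in red on the left of each panel and WT in blue on the right. In WT the mean of Ccne2 passes that of Ccne1 at days 8 and 16 and the mean of Rrm1 passes that of Rrm2 at day 16, neither of which happens in the 1343KO line, and Orc1 and Orc2 fall together in WT.

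In WT, most replication transcripts fell over both intervals. Of the 45 genes, 33 fell to day 8 and none rose, against 24.5% and 26.8% of all genes tested (51.3% in either direction), with a median change of -0.72. Between days 8 and 16, 34 fell and none rose, against 13.5% and 14.1% (27.6% in either direction), with a median of -0.67. By day 16, 41 were below day 0 and none above, against 28.5% and 32.7% (61.2% in either direction), with a median of -1.38, against 0.02 over all genes tested. The 4 genes that did not pass to day 16 were Gins3 (0.01), Rfc3 (-0.57), Pold2 (-1.09) and Ccne2 (-0.48). As a percentage of its own WT day 0 mean, the median gene stood at 59.8% at day 8 and 37.0% at day 16, from 10.9% for Ccne1 to 100.4% for Gins3 at day 16.

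In the 1343KO line 9 of them passed to each later day. To day 8, 2 rose (Mcm7 and Cdc45) and 7 fell (Orc2, Mcm2, Mcm3, Rpa1, Rrm1, Rrm2 and Ccne1), against 15.0% and 8.51% of all genes tested (23.5% in either direction). To day 16, 2 rose (Mcm7 and Pold1) and 7 fell (Orc2, Mcm5, Dbf4, Pola1, Rpa1, Rrm2 and Ccne1), against 18.2% and 8.60% (26.8% in either direction). These splits depend on scaling. Under TPM scaling none rose and 13 fell to day 8, and 1 rose and 10 fell to day 16. Under median-of-ratios scaling the counts were 0 and 13 to day 8, and 1 and 17 to day 16. Shares of all genes under these scalings, or with a library left out, are not given here, so such counts show only this dependence. Median changes were -0.16 to day 8 and -0.13 to day 16, against 0.07 and 0.11 over all genes tested. Single libraries matter too: the count of 9 to day 8 was 4 without 1343KO R1 or R2 of day 0 and 5 without R2 of day 8, and that to day 16 was 5 without 1343KO R1 of day 0 or R2 of day 16.

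Between days 8 and 16 no gene of the 45 passed in the 1343KO line (limma), and few of all genes tested did (0.602% higher, 0.203% lower, 0.804% in either direction). At an unadjusted p under 0.05 there were 2 of the 45, without a share of all genes at that threshold to set beside them. The median gene stood at 89.1% of its 1343KO day 0 mean at day 8 and 90.1% at day 16. Ccne1 was the lowest at both days, at 41.3% and 42.2%, and Cdc7 (157%, day 8) and Rfc3 (160.5%, day 16) were the highest, without a rise that passed (adjusted p = 0.0529 and adjusted p = 0.0843).

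**Figure D5:**
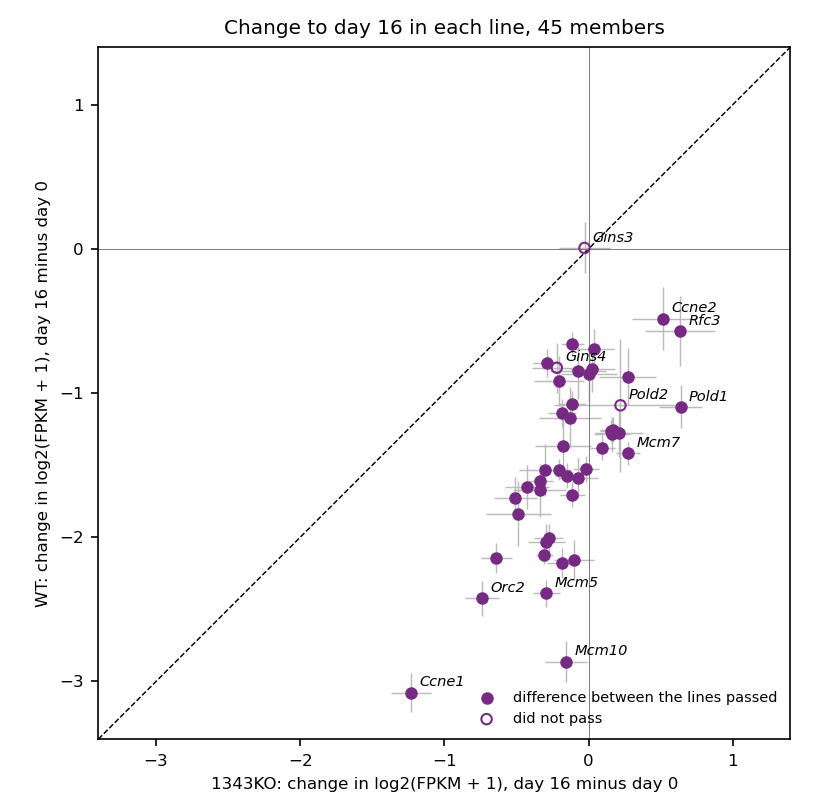
Change in log2(FPKM + 1) between days 0 and 16 in the 1343KO line (horizontal axis) and in WT (vertical axis) for 45 genes, with standard errors; filled points are genes whose changes differed between lines at an adjusted p under 0.05, and the dashed line marks equal change. All points but Gins3 lie below the dashed line, and changes run down to -1.23 in the 1343KO line and -3.08 in WT, both for Ccne1.

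The difference between the lines' changes was itself tested. To day 8 the change was more positive in the 1343KO line for 25 of the 45 genes and more negative for none, against 15.6% and 12.7% of all genes tested (28.3% in either direction), with a median difference of 0.60. To day 16 the counts were 42 and 0, against 21.7% and 18.2% (40.0% in either direction), with a median of 1.34. These tests share their libraries with the line comparisons and with the changes within each line. The 3 genes that did not pass to day 16 were Gins3 (-0.03 ± 0.25, adjusted p = 0.928), Gins4 (0.60 ± 0.25, adjusted p = 0.0799) and Pold2 (1.31 ± 0.65, adjusted p = 0.144). Largest were Mcm10 (2.71 ± 0.20), Mcm5 (2.097 ± 0.14) and Orc1 (2.06 ± 0.19). Tk1 and Ccne2, which did not pass between lines at day 16, passed here (1.04 ± 0.30 with adjusted p = 0.0221, and 1.001 ± 0.31 with adjusted p = 0.0279). The Ccne2 call here was lost without R2 of 1343KO at day 0 or 16 and without any 1 WT library of days 0 and 16 (adjusted p of 0.0634 to 0.0948).

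Of the 45 genes, 4 lie on chromosome 8 (Mcm5, Orc6, Gins3 and Gins4), where expression differed between lines at day 0. Among the 214 genes there whose mean reached 20 FPKM, 84 were lower and 1 higher in the 1343KO line at day 0. Of all genes tested, 2.12% were lower and 1.59% higher, shares over genes of every level that are not matched to a mean of 20 FPKM. The median difference of the 214 genes was -0.42, against -0.00 over 3910 genes of such a mean on the other chromosomes. The 4 genes were all below 0 at day 0, by -0.12 (Orc6), -0.13 (Gins3), -0.28 (Gins4) and -0.50 (Mcm5). At day 16 the chromosome 8 median was 0.06, against 0.40 on the others, and the median of the 4 genes was 0.37, against 1.36 over the other 41. The part of the chromosome in these values was not tested. Without chromosomes 8 and Y, 38 of 41 genes were higher in the 1343KO line at day 16.

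Cell type markers also differed between the lines. At day 0, 1 of 8 ES cell markers was higher in the 1343KO line, and 3 of 8 yolk sac, 1 of 6 blood and 1 of 4 tested neural markers were lower. Of all genes tested, 1.59% were higher and 2.12% lower, and no fibroblast, macrophage or heart muscle marker passed. Nanog was the higher one (0.49 ± 0.08). Gata4 (-2.64 ± 0.18), Gata6 (-2.31 ± 0.31) and Sox17 (-2.46 ± 0.45) of the yolk sac list, Runx1 of the blood list (-1.92 ± 0.23) and Sox1 of the neural list (-1.11 ± 0.19) were lower. The ES cell marker sum was 1302 to 1314 FPKM in the 1343KO line and 102 to 105 in WT at day 8, and 1141 to 1159.9 and 69.3 to 75.5 at day 16. On those days 8 and 7 of the 8 markers were higher in the 1343KO line, against 23.3% and 28.5% of all genes tested. The sum of 8 yolk sac endoderm markers, led by Afp, was 105 to 119.9 FPKM in the 1343KO line and 11357 to 11401 in WT at day 16, and that of 6 fibroblast markers 44.5 to 49.1 and 3790.3 to 3913. A list of 6 blood markers summed to 4.95 to 6.95 FPKM in the 1343KO line and 1039 to 1158 in WT at day 8, and 6 macrophage markers to 8.40 to 8.44 and 183 to 191 at day 16, with Mrc1, Tyrobp, Fcer1g and Lyz2 under 1 FPKM in both 1343KO libraries. At day 16, 7 of 8 yolk sac, 6 of 6 fibroblast, 6 of 6 macrophage and 2 of 6 blood markers were lower in the 1343KO line. That compares with 24.1% of all genes tested, and nothing is read from the blood count, which is not far from it. Heart muscle markers (5 genes) summed to 25.4 to 26.9 FPKM in the 1343KO line and 18.7 to 31.9 in WT on that day, and neural markers (5 genes) to 18.9 to 20.9 and 15.1 to 16.1. Among them Myl7 (1.53 ± 0.42), Pax6 (1.32 ± 0.23) and Sox1 (1.06 ± 0.19) were higher in the 1343KO line and Tnnt2 (-0.79 ± 0.26) was lower. The others of both lists did not pass, and Dcx was not tested. The part of these cell types in the replication result was not tested.

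Other genes of the process were taken from further lists. These lists were chosen with earlier results of these data known, so their counts are not an independent check on the genes above. Of 36 other replication genes, the 1343KO line had 31 higher and 1 lower at day 16, against 28.5% and 24.1% of all genes tested, with a median difference of 1.14. It had 17 higher and 2 lower at day 8 (23.3% and 19.6% of all genes tested) and 1 and 0 at day 0 (1.59% and 2.12%). Nasp, a histone chaperone, averaged 276 ± 9.88 FPKM in the 1343KO line and 64.7 ± 1.54 in WT at day 16 (2.08 ± 0.05), and Uhrf1, which carries DNA methylation across replication, 61.6 ± 0.458 and 19.3 ± 0.908 (1.62 ± 0.08). Pold4, the smallest subunit of polymerase delta, went the other way, with 3.14 ± 1.12 FPKM in the 1343KO line and 24.7 ± 0.165 in WT (-2.66 ± 0.23, adjusted p = 1.28e-05). Ticrr, which helps to fire origins, was the 1 gene of the list that differed at day 0, with 25.6 ± 3.22 FPKM in the 1343KO line and 15.2 ± 0.427 in WT (0.71 ± 0.15).

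Of 34 other nucleotide synthesis genes, the 1343KO line had 26 higher and 4 lower at day 16, against 28.5% and 24.1% of all genes tested, with a median difference of 0.92. At day 8 it had 20 and 2, against 23.3% and 19.6%. Paics, of purine synthesis, averaged 286 ± 13.8 FPKM in the 1343KO line and 119 ± 3.54 in WT (1.26 ± 0.06), and Cad, which opens pyrimidine synthesis, 50.4 ± 1.13 and 12.4 ± 1.26 (1.94 ± 0.10). Ctps2, which makes CTP, was lower, at 19.9 ± 1.70 FPKM in the 1343KO line and 33.1 ± 3.51 in WT (-0.70 ± 0.13). Tk2, the mitochondrial thymidine kinase, was also lower, at 4.83 ± 0.0602 FPKM in the 1343KO line and 9.48 ± 0.633 in WT (-0.84 ± 0.16). At day 0 none was higher and 4 were lower (1.59% and 2.12% of all genes tested), among them Dctd, the dCMP deaminase, at 18.3 ± 1.38 FPKM in the 1343KO line and 39.2 ± 7.02 in WT (-1.05 ± 0.15).

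Regulators of E2F and the G1/S step were counted in the same way. Of 29, the 1343KO line had 14 higher and 8 lower at day 16, against 28.5% and 24.1% of all genes tested. It had 5 higher and 8 lower at day 8 (23.3% and 19.6% of all genes tested), and 2 and 5 at day 0 (1.59% and 2.12%). The counts lower at day 16 and in both directions at day 8 are not far from those shares, and nothing is read from them. Mycn averaged 62.6 ± 5.37 FPKM in the 1343KO line and 20.4 ± 1.94 in WT at day 16 (1.57 ± 0.09), and Ccna2, the S phase cyclin A, 81.5 ± 0.364 and 42.2 ± 1.62 (0.93 ± 0.06). Lower were Ccnd2, a D-type cyclin of differentiating cells, with 11.73 ± 0.0955 FPKM in the 1343KO line and 65.0 ± 3.07 in WT (-2.37 ± 0.10), and Cdkn1c, which encodes the kinase inhibitor p57, with 63.2 ± 4.13 and 236 ± 14.7 (-1.88 ± 0.10). At day 0 the E2F partner Tfdp1, 1 of the 5 that were lower, averaged 85.3 ± 10.8 FPKM in the 1343KO line and 133 ± 2.14 in WT (-0.64 ± 0.09). Of 20 mitosis genes, all 20 were higher in the 1343KO line at day 16 (28.5% of all genes tested), with a median difference of 1.21, Plk1 by 1.46 ± 0.07 and Bub1 by 1.86 ± 0.09. At day 8 the mitosis genes had 8 higher and 2 lower, against 23.3% and 19.6% of all genes tested. The lower ones were Mki67 (-0.85 ± 0.08) and Cenpe (-0.57 ± 0.13). Mki67 averaged 28.8 ± 0.923 FPKM in the 1343KO line and 52.8 ± 2.32 in WT on that day. Of the G1/S list, Ccna2 then averaged 74.7 ± 1.05 FPKM in the 1343KO line and 96.0 ± 3.12 in WT, unlike its day 16 order.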

How the data were processed

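Poly(A) libraries (Trizol RNA, NEBNext Ultra II kit, Illumina, per the labels' protocols) were deposited as FPKM per gene, which the authors computed; Cufflinks 2.1.1 and GRCm38 (mm10) are listed in the submitters' processing notes. The sources used here do not give the aligner, annotation, filters or strand use. Gene identifiers matched GENCODE M21 for 99.9% and coordinates for 98.6%, with file starts counted from 0; coordinates here count from 1.

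The 16289 genes that reached 1 FPKM in 2 or more libraries were fitted as log2(FPKM + 1) with 1 mean per group over 12 libraries. R 4.3.3 and limma 3.58.1 were used (trended empirical Bayes, 6 residual degrees of freedom, two-sided, Benjamini-Hochberg within each of 11 contrasts, threshold 0.05). A log2 difference on this scale understates changes of low genes. Depth was estimated from FPKM steps (200 nt fragments assumed, transcripts of at least 1500 nt, tolerance 5%) and is approximate; no count test was run. The code was tested on simulated data.

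The 47 genes and the lists were chosen with earlier results of these data known. Values in every library are given for Mcm2 to Mcm7, for genes passing at day 0 or lying on chromosome 8, and for the largest change per role between lines at days 8 and 16, in WT to day 16 and in the difference of changes; Tk1 and some means were added as exceptions or for the other genes. Genes of the other lists were named from the 2 with the smallest p in each direction of a contrast. Settings varied were the pseudocount (0.1), the filter (none, or a mean of 5 FPKM), scaling (TPM, median-of-ratios), a replicate block, robust empirical Bayes, chromosomes 8 and Y removed, only the groups compared, and each library left out.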

Additional observations from a re-analysis of the deposited data

Results flagged for a closer look

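Results whose change differed between the lines are gathered here: for each, the change from day 0 in the 1343KO line minus that in WT was tested in limma and passed over all genes. To day 8, 25 genes passed, all positive. Among those described above the difference was 1.68 for Ccne1, 1.30 for Orc1, 1.25 for Mcm5, 1.23 for Dut, 1.20 for Rpa1, 1.07 for Mcm2, 1.06 for Gins1, 1.02 for Mcm7 and 1.01 for Mcm10. It was 0.93 for Pcna, 0.91 for Mcm6, 0.84 for Rrm2, 0.81 for Orc2, 0.81 for Pola1, 0.78 for Fen1 and 0.53 for Mcm3. Under TPM scaling the Mcm3 difference was 0.34 (adjusted p = 0.052) and that of Pola1 0.67 (adjusted p = 0.0555). The Pola1 call was also lost without R2 of 1343KO at day 0 or 8, WT R1 of day 0 or WT R2 of day 8 (adjusted p of 0.0557 to 0.0634).

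To day 16, 42 genes passed, all positive. The difference was 2.71 for Mcm10, 2.097 for Mcm5, 2.06 for Orc1, 1.99 for Dut, 1.85 for Ccne1, 1.82 for Rrm2, 1.74 for Gins1, 1.74 for Pold1, 1.73 for Mcm2, 1.69 for Mcm7 and 1.68 for Orc2. It was 1.51 for Mcm4, 1.50 for Rpa1, 1.47 for Pcna, 1.43 for Fen1, 1.42 for Mcm6, 1.35 for Rfc5, 1.32 for Mcm3, 1.22 for Pola1, 1.001 for Ccne2 and 0.55 for Orc6. Cell type markers also differ between the lines, some of them at day 0, and their part was not tested.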

How the results depend on the processing

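Of 151 calls of the genes whose every-library values the rule asked for (Tk1 and genes given only by means are not in this tally), recomputed under 20 alternatives each, 2920 of 3020 kept their direction and their side of the threshold, 100 lost the call and 0 reversed. Fits that changed only the filter, the spread or libraries outside the comparison left the log2 difference as it was and could not reverse it. The tally includes such fits, so it overstates how far the calls were put to the test. The count of genes that differed between lines at day 0 (2) was 1 with no filter, 1 with the replicate block, 1 without chromosomes 8 and Y and 0 with only the groups compared; the cause was not tested, except that leaving out chromosome 8 removes Mcm5. Under TPM scaling the difference of changes to day 8 passed for 16 genes, not 25; TPM moved the median of all genes between lines at day 8 from 0.06 to -0.09. Median-of-ratios scaling moved the 1343KO count to day 16 from 9 to 18 (1 higher, 17 lower), and the median of all genes there from 0.11 to 0. With only the groups compared, the 1343KO count to day 8 was 5 and the WT count between days 8 and 16 was 19, not 34, fits with 2 residual degrees of freedom. Shares of all genes passing are not given for these settings or for fits that leave out a library. Their counts are therefore set only against the main counts.

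With each library left out in turn, the lines differed in 0 to 3 genes (day 0), 25 to 35 (day 8) and 39 to 41 (day 16). The counts were 30 to 34 in WT to day 8, 41 to 42 to day 16 and 28 to 33 between them. In the 1343KO line they were 4 to 11 to day 8, 5 to 12 to day 16 and 0 between them. The differences of changes gave 21 to 26 to day 8 and 36 to 42 to day 16.

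No effect shared by replicate number was visible: the R1 minus R2 difference across genes correlated at -0.036 to 0.036 over 15 pairs of groups. This cannot show that the cultures were unpaired, and the labels do not say. The replicate block gave 33 genes between lines at day 8 and 40 at day 16, and ended 3 of the 151 calls: Ccne2 between lines at day 0 (adjusted p = 0.0606), Mcm2 in the 1343KO line to day 8 (0.053) and Mcm5 there to day 16 (0.0613). The 0 of day 0 arose without 1343KO R2, WT R1 or WT R2 of that day. With 2 libraries a group, small differences of low genes such as Gins3 were not detectable.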
